A study of Mus musculus with 2 samples.

Results

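The Mir379 to Mir3072 cluster is the distal block of microRNA genes in the imprinted Dlk1-Dio3 region of mouse chromosome 12. Its members were taken by position alone, as every gene of type miRNA in GENCODE M21 on the plus strand from 109709060 to 109747960 (mm10), the start of Mir379 to the end of Mir3072. That rule gave 39 of the 2202 microRNA genes in the deposited tables. The tables hold microRNA sequencing counts from adrenal glands, 1 library from each of 2 males of the strain B6CASTF1/J at an age of 36 days. Animals of this strain are first-generation hybrids of C57BL/6J and CAST/EiJ. The labels number the animals 3 (replicate 1) and 4 (replicate 2), although they list a single donor record for both. They define no other condition, so levels and the spread between these libraries are described, and each test compares 2 libraries rather than conditions.

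The Dlk1-Dio3 region carries protein-coding genes that are expressed from the paternal chromosome and long noncoding RNAs, small nucleolar RNAs and microRNAs that are expressed from the maternal one. The distal microRNAs are thought to be cut as many separate hairpins from 1 long maternal transcript. They are known from brain, placenta and neuroendocrine tissue, and in neurons they act in dendrite growth and synapse function. The allele of origin was not measured here.

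A hairpin gives up to 2 mature arms, named 5p and 3p, and the bases from 2 to 8 of an arm, its seed, lead target pairing. The deposited counts are per hairpin gene, so they do not say which arm was sequenced. RefSeq sequences (GRCm38.p6) were matched by symbol for 38 of the 39 members and gave 71 mature arms with 65 different seeds. The arms below are shown because their genes were the highest in the cluster, share a seed or differed most between the libraries. They are written 5′ to 3′ with the seed in capitals.
mmu-miR-379-5p: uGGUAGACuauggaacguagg
mmu-miR-1193-5p: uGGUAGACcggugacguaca
mmu-miR-379-3p: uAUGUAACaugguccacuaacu
mmu-miR-411-3p: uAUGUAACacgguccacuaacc
mmu-miR-411-5p: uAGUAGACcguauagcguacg
mmu-miR-376c-5p: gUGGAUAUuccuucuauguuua
mmu-miR-376b-5p: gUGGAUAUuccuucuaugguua
mmu-miR-541-5p: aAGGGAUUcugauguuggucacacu
mmu-miR-382-5p: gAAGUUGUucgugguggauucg
mmu-miR-485-3p: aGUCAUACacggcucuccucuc
mmu-miR-495-3p: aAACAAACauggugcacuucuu
mmu-miR-369-3p: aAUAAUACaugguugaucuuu

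The matched arms held many different seeds and few repeated ones. Both arms were matched for 33 members, so seeds on unmatched arms are not counted. Of the 65 seeds, 6 were shared, each by 2 members, and none by 3 or more. Beside those shown above, these were GGUUGUC in Mir494 and Mir410, GGUUGCC in Mir453 and Mir496a, and GGUUGAC in Mir1197 and Mir758. Mir379 and Mir411, the highest members, share the 3p seed AUGUAAC, and over the 22 bases of those arms they differ by U10C and U22C, with positions counted from 1 at the 5′ end and the Mir379 base first. The 5p arms of Mir376c and Mir376b share a seed and differ by U19G over 22 bases, the Mir376c base first. None of the 71 arms occurred letter for letter in the hairpin of another microRNA gene of GENCODE M21.

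Some hairpins also share short stretches of sequence. Of the 8-base words on the hairpin strand, 4 occurred in 6 members each: CGCUUUAU, UUCGCUUU, GGUACUUG and UCAGUAUC, of which the first 2 overlap by 6 letters. At least 1 of the 4 was in 15 members (38.5%) and in 6 of the other 2163 hairpins (0.277%). These words were picked for being frequent in the cluster, so the shares describe the sequences and test nothing.

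The libraries differed in depth, and also in the share of erythroid and epithelial microRNAs, whose values stand with the ratios. Sense counts over all microRNA genes came to 4494857 in replicate 1 and 2078824 in replicate 2, 36.6% and 20.1% of their reads. Unmapped reads made up 26.4% and 51.9%, and multimapping reads, which enter no gene count, 29.8% and 21.5%. Levels are given as CPM, counts scaled to a library total of 1000000 gene counts. A gene with 0 counts could still have held up to 3 counts, which is 0.667 CPM in the first library and 1.44 CPM in the second. Intervals and such limits cover counting error only, since PCR copies cannot be recognised.

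Most members lie outside the annotated noncoding RNA gene of the locus. Mirg, on the plus strand from 109729764 to 109749460, starts after the first 25 members. Of the 14 members within it, 4 lie in an exon of a Mirg transcript, 5 cross an exon edge and 5 lie in introns. The members upstream of Mirg held 66.8% of the cluster's counts in replicate 1 and 58.2% in replicate 2, a mean of 62.5% ± 6.10 (SD, n = 2). Cut at gaps over 2 kb, the cluster falls into 6 runs of neighbouring genes. The first run, Mir379 to Mir667, had 15 genes and 53.9% ± 5.87 of the counts, and the run from Mir154 to Mir410 had 8 genes and 22.0% ± 2.00. The run from Mir382 to Mir453 held 15.2% ± 4.08, the run from Mir376c to Mir300 5.66% ± 1.25, and the run from Mir381 to Mir544 2.94% ± 1.02. Mir3072 stood alone at 0.212% ± 0.0188.

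**Figure D1:**
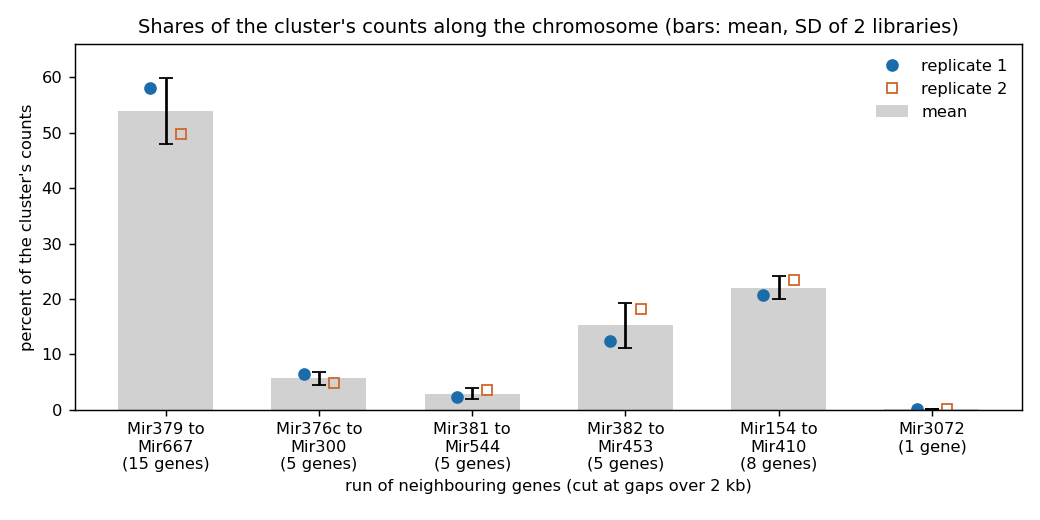
Share of the cluster's counts (percent, vertical axis) held by each run of neighbouring genes (horizontal axis), with bars for the mean, error bars for the SD of 2 libraries and points for each library. The first run held 58.1% in replicate 1 and 49.8% in replicate 2, more than any other run in each library.

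Nearly every member of the cluster was counted in the gland. At least 1 count in either library was found for 36 of 39 members (92.3%), against 34% of all microRNA genes. A minimum of 10 counts in each library was met by 33 members (84.6%), against 15.1% of all genes. The tested members had a median of 229 CPM, against 190 CPM over all 333 genes with as many counts. The cluster took 3.38% of the gene counts in replicate 1 (151715 counts, 95% interval 3.36 to 3.39, Clopper-Pearson exact method) and 2.73% in replicate 2 (56709 counts, interval 2.71 to 2.75), a mean of 3.05% ± 0.458 (SD, n = 2). The cluster's share was thus the lower one in replicate 2, by more than the counting intervals.

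A few members held most of these counts. Mir379 (ENSMUSG00000065498.4, 109709060 to 109709125) opens the cluster, upstream of Mirg, and had 9137 CPM in replicate 1 and 5752 CPM in replicate 2, a mean of 7445 ± 2394. Mir411 (ENSMUSG00000065477.3, 109710175 to 109710256), the next gene on the chromosome, had 8639 and 5552 CPM, a mean of 7096 ± 2183. The SDs exceed the gap between these genes, and both genes were lower in replicate 2. Within each library Mir379 was the higher, by a small margin that was not tested. Their count ratio, Mir379 over Mir411, was 1.06 in replicate 1 and 1.04 in replicate 2. Together they held 52.7% of the cluster's counts in replicate 1 and 41.4% in replicate 2.

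Mir541 (ENSMUSG00000076052.1, 109742409 to 109742498, in an intron of Mirg) had the next level, at 4690 and 4477 CPM, a mean of 4584 ± 151. Mir382 (ENSMUSG00000065428.4, 109733771 to 109733846, across an exon edge of Mirg) came after it, at 2505 and 2395 CPM, a mean of 2450 ± 78.0. Mir541 stood above Mir382 by far more than their SDs. The count ratio of Mir541 over Mir382 was 1.87 in each library. The 4 highest members held the same ranks in both libraries, with 74.0% of the cluster's counts in replicate 1 and 66.6% in replicate 2.

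Mir134 (ENSMUSG00000065426.3, 109734139 to 109734209, in a Mirg exon), known in neurons for limiting the size of dendritic spines, followed, at 1018 and 1188 CPM, a mean of 1103 ± 120. The next members did not separate from each other beyond their spread. Mir409 had 846 ± 280 CPM, Mir485 726 ± 532, Mir154 723 ± 107, Mir376c 711 ± 471 and Mir487b 616 ± 146 CPM. Just below them, Mir376a had 600.5 ± 123 and Mir299a 598 ± 2.72 CPM. The 10 highest members of replicate 1 and the 10 highest of replicate 2 had 8 genes in common. By mean level, 5 members stood at 1000 CPM or more, 18 from 100 to 1000 CPM, 10 from 10 to 100 CPM and 6 under 10 CPM.

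At the low end, 6 members had under 10 counts in a library. Mir654, Mir453 and Gm27379, a microRNA gene with no mature arm in the RefSeq table, had 0 counts in both libraries. Mir1197 had 0 and 1 counts, Mir544 had 7 and 1, and Mir758 had 6 and 16. These genes are interspersed with well-counted ones: Mir453 lies in the same run as Mir382, and Mir654 lies between Mir376c and Mir376b. The lowest member past the count minimum was Mir412, at 12.5 and 11.1 CPM, which starts 0.053 kb past the end of Mir409, a gene at 1044 and 648 CPM. Between Mir379 and Mir412 the mean level differed by 633-fold. The last member, Mir3072 (109747878 to 109747960), had 67.2 and 61.6 CPM, a mean of 64.4 ± 3.97.

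**Figure D2:**
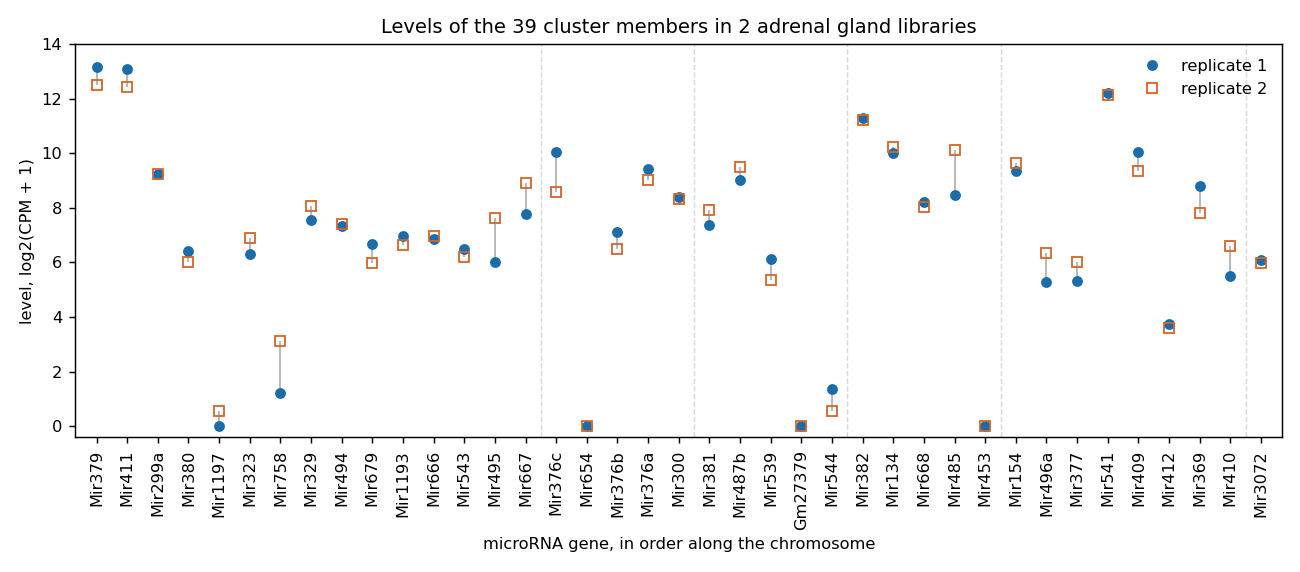
Level of each of the 39 members as log2(CPM + 1) (vertical axis) in chromosome order (horizontal axis), with filled circles for replicate 1, open squares for replicate 2 and dashed lines at gaps over 2 kb. Mir379 and Mir411 at the left edge, Mir382 and Mir541 are the highest genes in both libraries, and Mir654, Gm27379 and Mir453 sit at 0.

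Rank correlations of level with place and hairpin composition were small. Across the 39 members, Spearman's rho of the mean level was -0.058 with distance from Mir379, -0.17 with hairpin GC content and 0.035 with the predicted folding energy of the hairpin. These are descriptions across genes that share a locus and the same 2 libraries. Hairpin GC content ran from 29.1% in Mir376c to 72.3% in Mir3072, with a median of 43.6%, against 50.8% over all microRNA genes. Between the libraries, the rank order of the 39 levels gave a rho of 0.94, and that of the 33 tested members 0.91, beside 0.93 over all 333 tested genes.

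All but 3 reads were on the sense strand of the members. The opposite-strand column held 2 counts over the members in replicate 1 and 1 in replicate 2. The members Mir299a, Mir380, Mir376a, Mir539 and Mir409 overlap a microRNA gene annotated on the minus strand. In the column that ignores strand these 5 members together held 1 count, whereas in the sense column they held 7.35% and 6.84% of the cluster's counts.

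The spread between the animals' libraries was then set out member by member. Ratios are replicate 2 over replicate 1 on the log2 scale, after TMM scaling in edgeR. Each of the 333 genes that met the count minimum was given a two-sided exact binomial test, adjusted by the Benjamini-Hochberg method over all of them. It allows for counting noise and no other error, and it called 78.1% of all tested genes (38.7% higher in replicate 1 and 39.3% higher in replicate 2). Among the 33 tested members it called 28, of which 17 were higher in replicate 1 and 11 higher in replicate 2. A share of called genes near the general one is not a result about the cluster. The edgeR exact test, with a dispersion estimated from the same 2 libraries (biological coefficient of variation 52.7%), called 0 members. That dispersion counts the differences between the libraries as noise, so the test can hardly call them. The edgeR count at an unadjusted p under 0.05 was also 0 members, and the lowest adjusted p of a member was 0.988. Over all 333 genes, 0.601% passed that test.

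Most members differed by less than 2-fold between the libraries. Over 2-fold apart were 4 of the 33 members, against 27.3% of all tested genes. Of these, 2 were higher in replicate 1, against 12.6% of all tested genes, and 2 in replicate 2, against 14.7%. With no count minimum, 10 of 36 members and 206 of 749 genes were over 2-fold apart by a finite ratio. Genes counted in a single library have no finite ratio and enter these totals without being counted as apart. The shares at that setting can therefore not be set against those above. The members' median absolute log2 ratio was 0.51, against 0.62 over all tested genes. Their median log2 ratio was -0.25, against 0.0054 over all tested genes.

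The members over 2-fold apart came from separate runs. Mir376c (109722718 to 109722803, upstream of Mirg), of a family whose primary transcripts are known for A-to-I editing, had 4692 and 785 counts, or 1044 and 378 CPM. It was 3.14-fold higher in replicate 1, and its log2 ratio was -1.65 (interval -1.76 to -1.54, exact binomial adjusted p = 4.66e-248, edgeR exact adjusted p = 0.988). With a correction for hairpin GC content, which is lowest in this gene, the log2 ratio was -1.07. Mir369 (109743418 to 109743496, across an exon edge of Mirg), known for a role in translation of the mRNA of tumour necrosis factor, had 449 and 226 CPM and was 2.26-fold higher in replicate 1. Its log2 ratio was -1.18, with an interval of -1.32 to -1.03. It was within 2-fold with library size alone (-0.99) and with the GC correction (-0.93).

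Toward replicate 2, Mir485 (109734902 to 109734974, in a Mirg exon), which acts at synapses in neurons, had 1574 and 2292 counts, or 350 and 1103 CPM. It was 2.77-fold higher in replicate 2, and its log2 ratio was 1.47 (interval 1.38 to 1.56, exact binomial adjusted p = 6.13e-216, edgeR exact adjusted p = 0.988). Mir495 (109718754 to 109718816, upstream of Mirg) had 64.5 and 198 CPM and a log2 ratio of 1.43, with an interval of 1.21 to 1.65. A close neighbour of Mir485 had a smaller ratio. Mir134, in the same run, had a log2 ratio of 0.037 and was not called, and the count ratio of Mir485 over Mir134 was 0.344 in replicate 1 and 0.928 in replicate 2.

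The next largest ratios were those of Mir539 (-0.97) and Mir679 (-0.91) toward replicate 1 and of Mir667 (0.97) and Mir410 (0.93) toward replicate 2. The highest members were also past the binomial test toward replicate 1, Mir379 with a log2 ratio of -0.85 (interval -0.88 to -0.82), Mir411 with -0.82 (-0.85 to -0.79), Mir541 with -0.25 (-0.29 to -0.22) and Mir382 with -0.25 (-0.30 to -0.20). Mir409 stood at -0.87, while Mir487b (0.30) and Mir154 (0.12) were past the test toward replicate 2. Mir412 (-0.36) and Mir3072 (-0.31) were not past it, the latter with an exact binomial adjusted p of 0.0532. The direction of the smallest ratios followed the scaling and a correction for hairpin GC content: with the correction Mir382 stood at 0.055, Mir134 at -0.22, Mir299a at 0.081 in place of -0.18, and Mir494 at 0.32 in place of -0.095. With library size alone Mir299a stood at 0.0093.

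**Figure D3:**
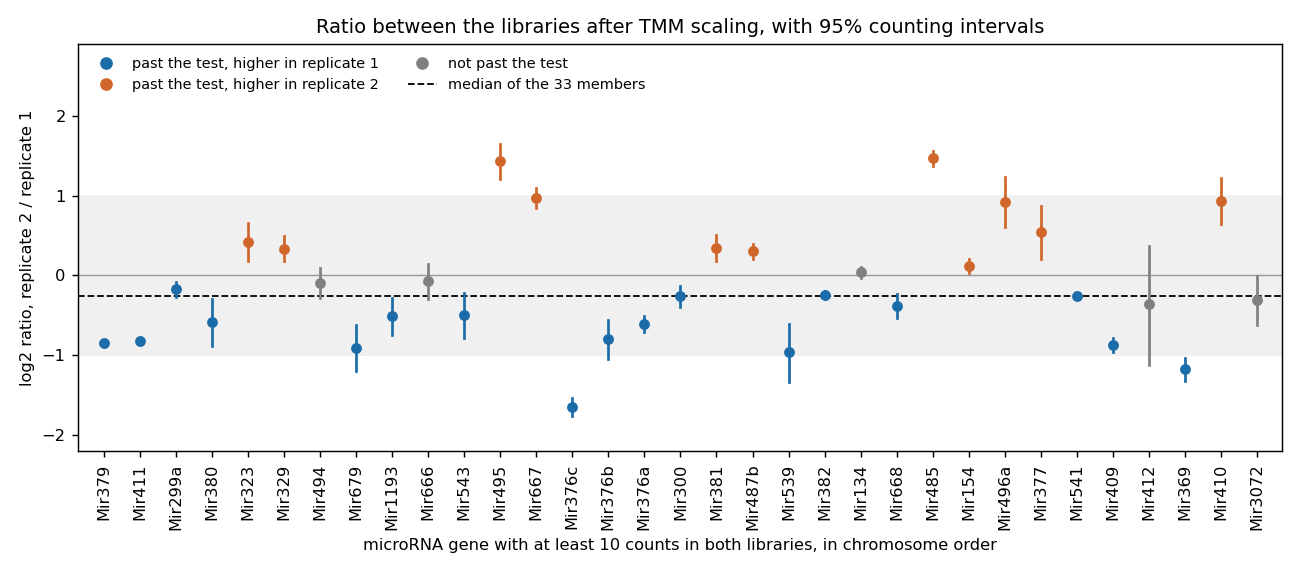
Log2 ratio of replicate 2 over replicate 1 after TMM scaling (vertical axis) for the 33 members with at least 10 counts in both libraries, in chromosome order (horizontal axis), with 95% counting intervals, the 2-fold range shaded and the median of the members dashed. Mir376c lies lowest at -1.65 and Mir485 highest at 1.47, and 29 members lie within 2-fold.

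The tested members of 1 run stood on the same side. In the run from Mir376c to Mir300, 4 of 4 tested genes had the higher level in replicate 1 and the median log2 ratio was -0.70. With library size alone or with the GC correction Mir300 was not past the test. The GC correction made all 4 ratios smaller: -1.07 for Mir376c, -0.42 for Mir376b, -0.11 for Mir376a and -0.12 for Mir300. Within the run the count ratio of Mir376c over Mir376a changed from 1.52 to 0.736 between replicates 1 and 2, while that of Mir376a over Mir376b was 5.03 and 5.74. The other runs with more than 1 gene held members past the test in each direction: 7 higher in replicate 1 and 4 in replicate 2 from Mir379 to Mir667, 1 and 2 from Mir381 to Mir544, 2 and 1 from Mir382 to Mir453, and 3 and 4 from Mir154 to Mir410. Over all 333 tested genes the test called 38.7% toward replicate 1 and 39.3% toward replicate 2. Whether the runs differ from that was not tested.

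Before TMM scaling, the difference in the cluster's share of gene counts lay with Mir379 and Mir411. They took 1.78% of all gene counts in replicate 1 and 1.13% in replicate 2. The other 37 members together took 1.60% of the gene counts in each library, with 71813 and 33210 counts. These are shares before TMM scaling, and they are sums. TMM scaling lowers every log2 ratio by the same amount, that of Mir379 from -0.67 with library size alone to -0.85. After it, the sum of the 37 members is therefore also lower in replicate 2. After TMM scaling, single members among the 37 had log2 ratios from -1.65 (Mir376c) to 1.47 (Mir485). The split into the pair and the other 37 was made after the values were seen.

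The microRNAs nearer to Meg3 in the same imprinted region gave a reference from the same locus. From the start of Meg3 to Mir379, 20 microRNA genes lie on the plus strand, among them those antisense to the paternally expressed gene Rtl1, and 15 had at least 10 counts in both libraries. They took 2.44% and 2.93% of the gene counts, a mean of 2.68% ± 0.350 (SD, n = 2), most of it Mir127 at 16909 and 20184 CPM. The second of them was Mir433, at 2140 and 2740 CPM. Before TMM scaling, the upstream genes thus had the higher share in replicate 2 and the distal cluster the higher share in replicate 1. After TMM scaling, the log2 ratio of the sums was 0.081 for the upstream genes and -0.49 for the cluster. Of the 15 tested upstream genes, the test called 4 toward replicate 1 and 9 toward replicate 2, against 38.7% and 39.3% of all tested genes. Their median log2 ratio was 0.26, and 4 of the 15 were over 2-fold apart, a share near the 27.3% of all tested genes. Whether the lists differ was not tested.

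**Figure D4:**
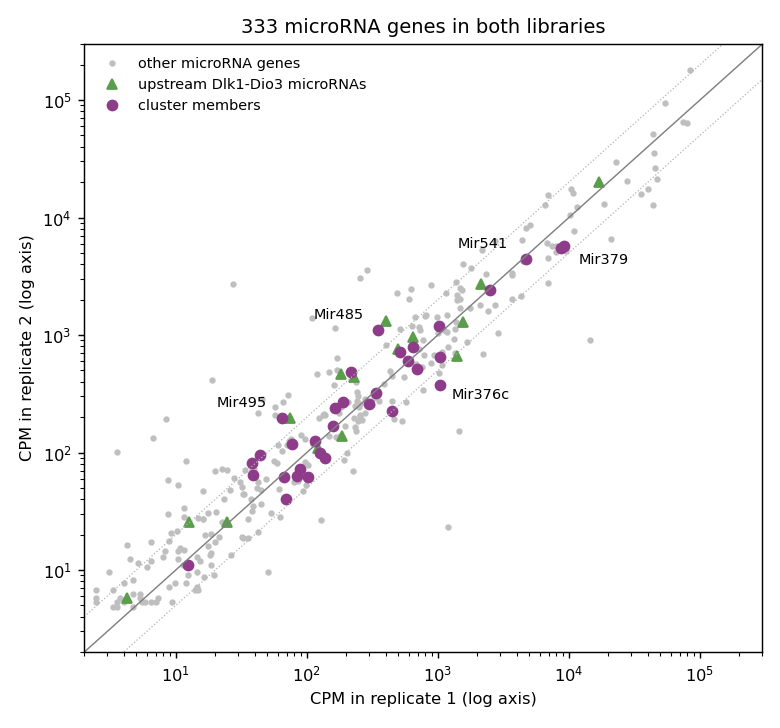
CPM in replicate 1 (horizontal, log axis) against CPM in replicate 2 (vertical, log axis) for the tested microRNA genes, with cluster members as circles, upstream Dlk1-Dio3 microRNAs as triangles and the other genes in grey. The solid line marks equal CPM and the dotted lines a 2-fold difference, with Mir376c below them and Mir485 and Mir495 above.

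Markers of other cell types differed between the libraries as well. The list of 3 erythroid microRNAs took 1.58% of counts in replicate 1 and 0.109% in replicate 2, and the 5 epithelial miR-200 genes 0.00647% and 0.358%. Of the erythroid genes, Mir451a (log2 ratio -4.18) and Mir144 (-3.42) were called toward replicate 1, while Mir486 (-0.33) was not past the test. The 3 pancreas acinar microRNAs had 0 and 677 counts. The 4 neuroendocrine genes took 4.88% and 5.42%, a log2 ratio of the sums of -0.035 after TMM scaling. Most of these counts were from Mir375 (44147 and 51780 CPM, log2 ratio 0.045), while Mir7b (-1.21), Mir7-1 (-0.69) and Mir7-2 (-0.40) were called toward replicate 1. The 2 endothelial genes took 7.48% and 6.48%. The neuronal list took 0.0960% and 0.0423%, a log2 ratio of the sums of -1.37 after TMM scaling. Its genes Mir137 (-1.38) and Mir153 (-2.45) were called toward replicate 1, and the other 2 tested genes were not past the test. Of its 10 genes 5, among them Mir124a-1, Mir124a-2 and Mir124a-3, were at 0 in both libraries. Such copies of 1 microRNA share reads, which would then be multimapping. The striated muscle list took 0.000667% and 0.00111%, with 5 of its 10 genes at 0 in both libraries. Among them were the copies Mir1a-1 and Mir1a-2, and Mir133a-1 and Mir133a-2, to which the same limit applies. Over all 333 tested genes the log2 ratio had a Spearman's rho of 0.26 with hairpin GC content, and over the 33 members 0.12. The part of these differences in the members' ratios was not tested, and in bulk tissue fewer cells of a type and less RNA per cell cannot be told apart.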

How the data were processed

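Adrenal gland microRNA libraries from 2 mice formed 1 group. The authors deposited whole-number counts of reads for each microRNA gene, made on mm10 with GENCODE M21, per the labels and the text deposited with the files. Which aligner and counter made them is not given in the sources used here. One count column ignores strand and 2 count a strand each. The strand column with the larger gene total was taken as sense. Rows for unmapped, multimapping, unassigned (7.16% and 6.46% of reads) and ambiguous reads name no gene and were left out.

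Levels are CPM over all gene rows, with the SD of 2 libraries. Ratios used TMM (edgeR 4.0.16, R 4.3.3) over genes reaching 10 counts in each library, and exact binomial tests (SciPy 1.17.1) at an adjusted p of 0.05 over 333 genes. No spread within an animal exists, so p-values measure these libraries only. Hairpins were folded with ViennaRNA 2.7.2. The binomial test and its intervals were tried on simulated counts that held counting noise only, scaled by genes known to be unchanged. TMM scaling and the edgeR exact test were not tried in that way.

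The members and lists were chosen with earlier results of these data known. Named members were the 10 highest, the 4 with the largest ratio each way past the test, those under 10 counts, the first and last, members of seed groups of 3 or more, and the highest and lowest of each run, with the 2 highest upstream genes. Others were named after their values were seen. Mir3072 lies past Mir410, where the design text ended the cluster, and was kept because the position rule includes it. Alternatives were count minimums of 5, 50 and none, library size, DESeq2 1.42.0 size factors, the strand-blind column, a hairpin GC correction, a pseudocount of 0.1 in place of 1 CPM, totals that omit the highest gene, and single libraries.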

Additional observations from a re-analysis of the deposited data

How the results depend on the processing

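The cluster's share of gene counts ran from 2.73% to 3.38% with 1 library alone. It was 3.51% when the highest gene was left out of the totals, and 1.60% over the 37 members other than Mir379 and Mir411. The members' median log2 ratio was -0.067 with library size alone (all tested genes 0.19), -0.12 with the hairpin GC correction and -0.42 with no count minimum. With no count minimum, 7 of 36 members were higher in replicate 2 (132 of 749 genes). By finite ratios, 10 members were over 2-fold apart (206 genes) and the median absolute log2 ratio was 0.68 (all genes 0.76). Genes counted in a single library have no finite ratio. This setting adds poorly counted genes and also refits the TMM scaling. The refit moved the ratio of every tested member by the same amount, that of Mir379 from -0.85 to -1.02. The edgeR exact test called 0 members in each direction, with the dispersion taken from all genes or from the others only. Either dispersion came from these same libraries and counts their differences as noise, so few calls were possible. With the GC correction 4 members turned, Mir382 to 0.055, Mir134 to -0.22, Mir299a to 0.081 and Mir494 to 0.32. With library size alone Mir299a turned to 0.0093, Mir494 to 0.090 and Mir666 to 0.11. With no count minimum Mir134 turned to -0.13 and Mir154 to -0.052, and with a count minimum of 5 Mir134 turned to -0.015. A changed count minimum or library scaling moves all ratios by the same amount. Why the scalings differ was not tested. Mir3072 was past the binomial test, with a log2 ratio from -0.88 to -0.32, under each alternative count minimum, scaling and column other than library size alone, though not in the edgeR exact test, and Mir154 was not past it with a count minimum of 5 or in the strand-blind column. With the binomial test the alternatives gave 13 to 20 members higher in replicate 1 and, beside the 7 above, 10 to 13 higher in replicate 2. These settings tested 28 to 36 members and 259 to 749 genes in all. Over all tested genes they called 112 to 167 toward replicate 1 and 117 to 149 toward replicate 2. No paired analysis was possible because there is only 1 group. A ratio cannot be had with a library left out. Depth limits the 6 members with under 10 counts.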
